A study of Mus musculus with 13 samples.

Results

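The 10 crypt-base stem cell markers described here, of 24054 genes in the count tables, were Olfm4, Smoc2, Tnfrsf19, Slc14a1, Aqp4, Mex3a, Rgmb, Cdca7, Slc12a2 and Msi1. They were listed by symbol, and all 10 had enough counts to be tested in every comparison. Their levels were measured by bulk RNA-seq in 13 libraries of adult mouse small intestine, in 6 groups that differ in whether and by which driver the tumour suppressor Apc was deleted. Organoids, which are self-renewing epithelial cultures grown from crypts, formed 3 groups of 2 libraries at a labelled 10 days. These were Sec-Cre (Atoh1CreERT2;Apcfl/fl;Rosa26tdTomato), ISC-Cre (Lgr5eGFP-CreERT2;Apcfl/fl;Rosa26tdTomato) and WT (genotype given only as WT). Sorted intestinal stem cells (ISCs) formed the other 3 groups. The ileal Sec-Cre ISCs (Atoh1CreERT2;Apcfl/fl;Lgr5DTR-GFP;Rosa26tdTomato, 2 libraries) and ileal WT ISCs (Apcfl/fl;Lgr5DTR-GFP;Rosa26tdTomato with no Cre named, 2 libraries) were taken at 21 days. The duodenal ISC-Cre ISCs (Lgr5eGFP-CreERT2;Apcfl/fl;Rosa26tdTomato, 3 libraries) were taken at 14 days. Every group, WT included, received 2 doses of 1 mg tamoxifen.

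Atoh1CreERT2 is active in secretory cells and Lgr5eGFP-CreERT2 in crypt-base stem cells, so the drivers start Apc loss in different cells. Whether recombined cells were selected is not given in the sources used here, and the Apc counts cover the whole gene, so they do not check the deletion. The design has no duodenal WT group. Region, day, digestion, driver, Lgr5 allele and library strandedness all change between the duodenal and the ileal ISCs and cannot be told apart. The shared extraction protocol names duodenum for all samples, so the ileal origin rests on the labels of single samples. For the organoids no other region is given here. No source says that replicates came from separate animals or cultures, and the p-values then reflect only how far these samples differ, which can include technical spread.

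Crypt-base columnar cells sit between Paneth cells at the bottom of the crypt and carry the surface receptor Lgr5. Wnt ligands stabilise beta-catenin, which with TCF/LEF factors switches on the stem cell programme, and Notch signals from neighbouring cells, read through RBPJ, keep these cells out of the secretory fate. Apc belongs to the complex that marks beta-catenin for destruction, and without it the Wnt arm stays on. The markers do varied work in these cells. Olfm4 and Smoc2 encode secreted proteins, Tnfrsf19 and Rgmb cell surface receptors, Aqp4, Slc14a1 and Slc12a2 a water channel, a urea transporter and a sodium-potassium-chloride cotransporter, Mex3a and Msi1 RNA-binding proteins, and Cdca7 a nuclear protein of dividing cells.

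Promoter sequence was matched by symbol for 5 of the 10 members (Olfm4, Tnfrsf19, Mex3a, Rgmb and Cdca7), as 8 windows of 250 bases before to 50 after a RefSeq start on GRCm38.p6. The others were Smoc2, Slc14a1, Aqp4, Slc12a2 and Msi1. The windows were searched on both strands for the TCF/LEF core ATCAAAG and the RBPJ core TGGGAA, motifs that do not overlap each other. ATCAAAG was in 1 of the 8 windows, the second start of Tnfrsf19, and in 3.73% of all 32851 RefSeq windows. TGGGAA was in 2 of the 8, Olfm4 and Cdca7, and in 25.6% of all windows. A match is a run of letters and not a shown binding site. The bases upstream of the starts are shown for Tnfrsf19 and Mex3a, which both rose in Apc-null organoids and duodenal ISCs and did not pass in the libraries labelled ileal Sec-Cre, and the last 30 bases before the start for Olfm4, which fell in the former. The bases are written 5′ to 3′ on the gene's strand, with the motif in capitals. The Olfm4 start used lies inside the annotated gene. The 250 bases before it overlap an annotated Olfm4 exon on the same strand, so fewer are shown.
Tnfrsf19, first start, chr14:61046856-61047105, minus strand: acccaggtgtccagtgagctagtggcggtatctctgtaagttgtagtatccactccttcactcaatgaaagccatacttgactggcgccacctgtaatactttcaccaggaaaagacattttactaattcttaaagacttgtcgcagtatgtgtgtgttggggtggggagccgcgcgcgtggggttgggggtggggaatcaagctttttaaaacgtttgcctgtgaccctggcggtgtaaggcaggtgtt
Tnfrsf19, second start, chr14:61037988-61038237, minus strand, ATCAAAG in capitals: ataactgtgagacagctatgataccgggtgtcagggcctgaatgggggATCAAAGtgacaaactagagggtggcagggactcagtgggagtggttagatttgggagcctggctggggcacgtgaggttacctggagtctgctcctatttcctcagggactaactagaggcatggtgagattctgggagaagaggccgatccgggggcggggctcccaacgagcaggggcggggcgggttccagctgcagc
Mex3a, chr3:88531696-88531945, plus strand: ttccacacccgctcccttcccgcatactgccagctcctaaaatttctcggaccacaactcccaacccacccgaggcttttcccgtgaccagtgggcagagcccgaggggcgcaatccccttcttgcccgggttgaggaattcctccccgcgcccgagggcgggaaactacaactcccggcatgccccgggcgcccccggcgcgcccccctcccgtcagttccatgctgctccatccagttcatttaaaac
Olfm4, chr14:80000272-80000301, plus strand, TGGGAA in capitals: taagaagccctgagactcTGGGAAgaagcc

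Neither motif was found in the Mex3a window or in the first Tnfrsf19 window, which says only that these letters are not there. The ATCAAAG match began at position -202 from the second Tnfrsf19 start and the TGGGAA match of Olfm4 at position -12 from its start.

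The organoid libraries held 13631423 to 22182702 gene counts each and the duodenal ISC libraries 21580486 to 27336750. Among ileal ISCs the WT pair held 15573041 and 18609373, and the pair labelled Sec-Cre 11524335 and 45516228. Apc, counted over the whole gene, was at 185 to 243 CPM (counts scaled to effective library size over all 13 libraries) in Apc-null organoids and 139 and 157 in WT organoids. It was at 107 and 48.2 in libraries labelled ileal Sec-Cre, 114 and 124 in the ileal WT pair, and 165 to 453 in the duodenal ISCs. Lgr5, the defining marker of the sort, was present in all 7 ISC libraries, at 51.9 to 97.8 CPM in the ileal ones and 222 to 248 in the duodenal ones. The ileal and duodenal ISCs carry different Lgr5 alleles, whose part in these levels was not tested. The libraries labelled ileal Sec-Cre stood apart. Unmapped reads were 57.0% and 35.8%, and Paneth cell markers (17 of 18 in the tables, Defa23 at 0) held 25.6% of the counts of replicate 1 and 0.892% of those of replicate 2, against 2.24% and 2.28% in ileal WT. Their enterocyte markers (10 of 10 detected) held 1.60% and 2.13%, against 0.145% and 0.153%. Both carried the proximal factor gene Onecut2 (225 and 59.7 CPM, against 0.743 and 1.77 in ileal WT and 113 to 227 in duodenal ISCs) together with the distal gene Fabp6 (41.1 and 381 CPM, against 0.142 to 0.226 in duodenal ISCs), genes chosen after their values were seen. Axin2, a Wnt feedback gene that Apc loss is known to raise, was at 79.1 and 37.9 CPM there, against 329.9 and 285 in the ileal WT pair and 679 to 771 in the duodenal ISCs. Calls in the list of Wnt feedback genes went both ways there. Against ileal WT, 4 of 16 were called higher (Notum, Lef1, Dkk3 and Sp5) and 2 lower (Axin2 and Ccnd1), with a median log2 fold change of 0.41. Among all genes 9.62% were called higher and 6.96% lower. Of the higher genes, Notum and Dkk3 were near the floor in ileal WT, at means of 0.940 and 0.926 CPM, and Lef1 was at 0 in ileal WT replicate 2. The summed level of the list was lower, at 642 and 624 CPM against 1170 and 1096 in ileal WT. Since calls among the Wnt feedback genes went both ways, with Axin2 among the lower ones, these are called libraries labelled ileal Sec-Cre. Each direction drawn from them rests on that label.

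In organoids the markers split after Apc loss. That they move in opposite directions was already known from these data when the members were listed. The split and its counts therefore describe the set and do not test it. With the Sec-Cre driver, 3 of the 10 rose and 3 fell, where 33% of all 14208 genes tested were called (16.7% higher, 16.3% lower; edgeR quasi-likelihood test, Benjamini-Hochberg adjusted p under 0.05 over all genes). With the ISC-Cre driver, 3 rose and 4 fell, where 37.8% of genes were called (19.3% higher, 18.5% lower). Tnfrsf19, Slc14a1 and Mex3a were the 3 that rose with either driver, and Olfm4, Aqp4 and Slc12a2 fell with either. Both comparisons share the same WT libraries. The median log2 fold change over the 10 was 0.31 with Sec-Cre and 0.07 with ISC-Cre, beside 0.05 and 0.03 over all genes, because large rises and large falls stood on either side. In bulk libraries, fewer cells of a type and less RNA per cell cannot be told apart.

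**Figure D1:**
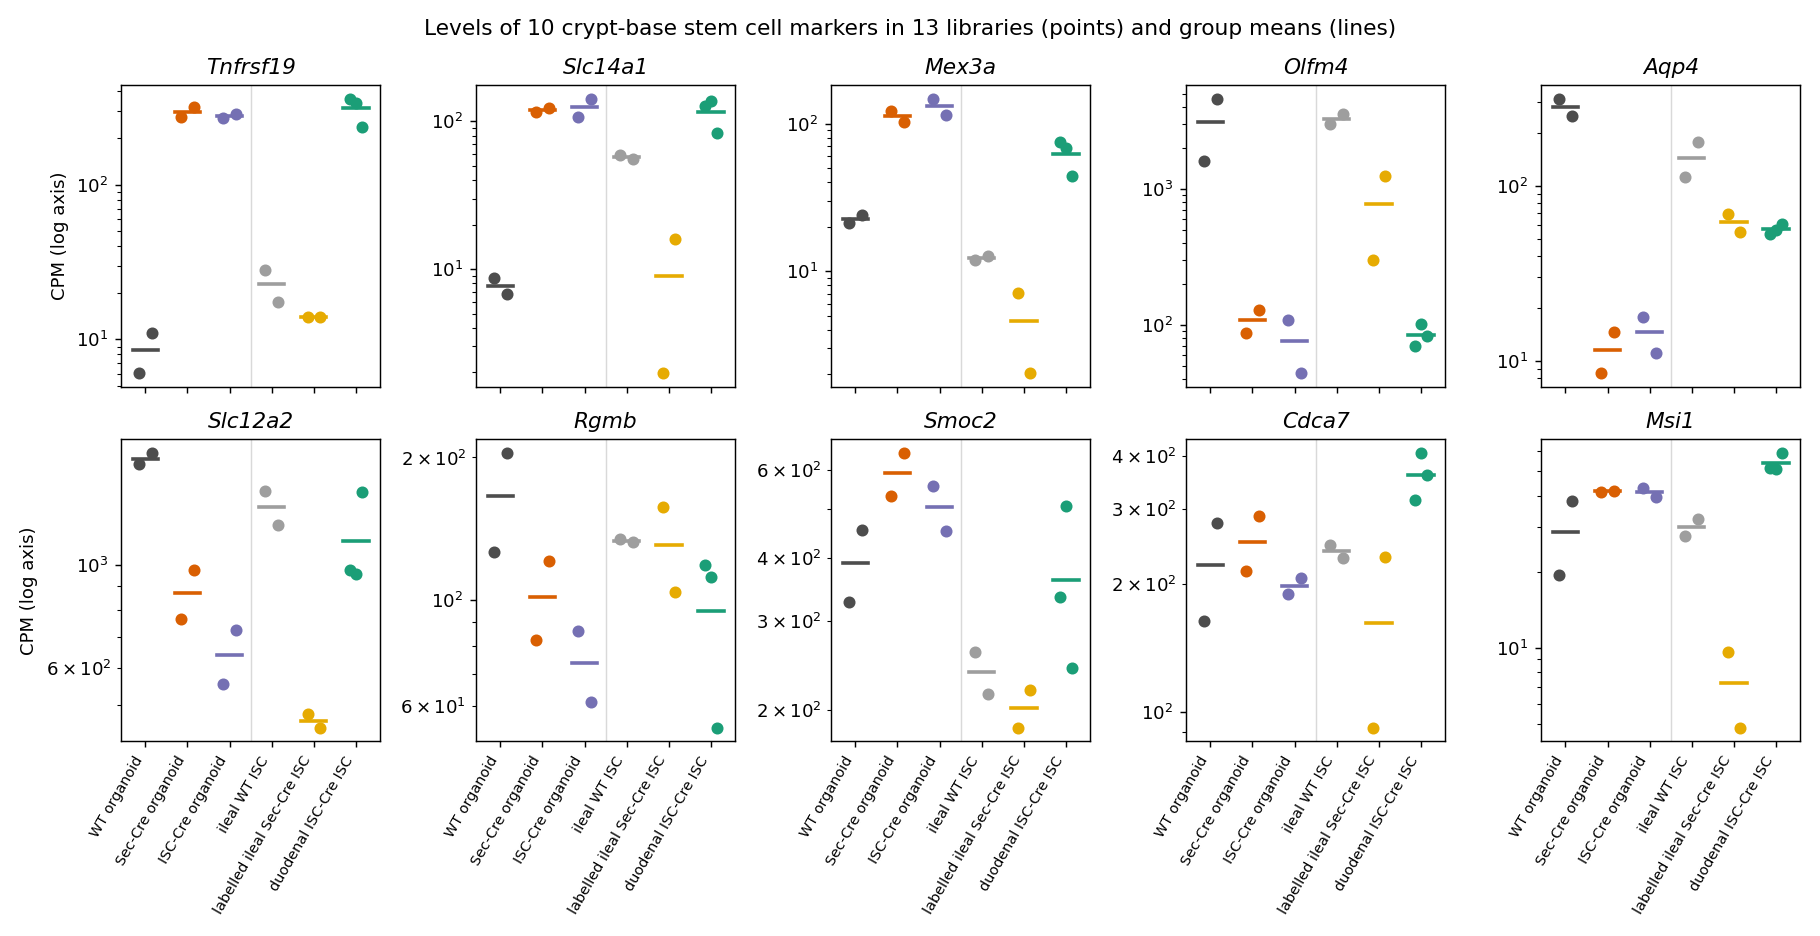
Level of each marker in every library, in CPM on a log axis, by group; each point is 1 library and the bar is the group mean. Olfm4 and Aqp4 are highest in the WT organoids and ileal WT ISCs, while Tnfrsf19 is at 236 to 359 CPM in the Apc-null organoids and duodenal ISCs and at 6.05 to 28.1 CPM in the other groups.

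Olfm4, a secreted glycoprotein that is a classical marker of mouse crypt-base cells and a known Notch target (chr14:79984081-80023139, plus strand, GRCm38), was at 1604 and 4642 CPM in the WT organoids. It was at 87.3 and 129 CPM in Sec-Cre and at 109 and 44.1 CPM in ISC-Cre organoids. All 4 Apc-null organoids lay far below both WT organoids, although the WT pair itself differed 2.89-fold. Olfm4 fell by 4.90 ± 0.641 (SE) on the log2 scale with Sec-Cre (edgeR adjusted p = 0.00139) and by 5.37 ± 0.656 with ISC-Cre (edgeR adjusted p = 0.000858).

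Of the channel and transporter genes, 2 fell and 1 rose. Aqp4, the water channel (chr18:15389496-15410982, minus strand), was at 314 and 251 CPM in WT, 8.53 and 14.8 in Sec-Cre and 17.95 and 11.2 in ISC-Cre organoids. The groups did not overlap, and Aqp4 fell by 4.65 ± 0.345 (edgeR adjusted p = 0.000129) and 4.30 ± 0.339 (edgeR adjusted p = 0.000132). Slc12a2, the basolateral cotransporter that loads chloride into epithelial cells (chr18:57878678-57946821, plus strand), was at 1639 and 1733 CPM in WT, 766 and 973 in Sec-Cre and 556 and 726 in ISC-Cre organoids. Its fall was smaller than those of Olfm4 and Aqp4 but again without overlap with WT, by 1.01 ± 0.17 (edgeR adjusted p = 0.004) and 1.43 ± 0.172 (edgeR adjusted p = 0.000797). Slc14a1, the urea transporter (chr18:78100091-78142119, minus strand), moved the other way. It was at 8.65 and 6.80 CPM in WT, 115 and 124 in Sec-Cre and 107 and 143 in ISC-Cre organoids. Every Apc-null library was far above both WT libraries, and Slc14a1 rose by 3.91 ± 0.202 (edgeR adjusted p = 4e-05) and 3.99 ± 0.203 (edgeR adjusted p = 3.03e-05).

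Among the surface receptors and secreted proteins, Tnfrsf19 had the largest rise of the 10 in each organoid comparison. Tnfrsf19, also called Troy, is a TNF receptor family member and Wnt target of stem cells (chr14:60963875-61046490, minus strand). It was at 6.05 and 10.9 CPM in WT, 273 and 317 in Sec-Cre and 268 and 286 in ISC-Cre organoids. The 4 Apc-null libraries lay close together and far above WT, with a rise of 5.04 ± 0.269 (edgeR adjusted p = 4.17e-05) and 4.97 ± 0.268 (edgeR adjusted p = 3.56e-05). Rgmb, a co-receptor for BMP signals (chr17:15803188-15831039, minus strand), was at 127 and 204 CPM in WT, 82.3 and 121 in Sec-Cre and 86.1 and 61.1 in ISC-Cre organoids. Its log2 fold change was -0.75 ± 0.288 with Sec-Cre (edgeR adjusted p = 0.0825), and it fell by 1.20 ± 0.291 with ISC-Cre (edgeR adjusted p = 0.0155). That last call was lost without ISC-Cre replicate 2, without WT replicate 2, or with all 13 libraries in the fit. Smoc2, a secreted matrix-associated protein (chr17:14279506-14404790, plus strand), was at 327 and 454 CPM in WT and 453 to 647 CPM in the Apc-null organoids. Its log2 fold changes of 0.54 ± 0.198 (edgeR adjusted p = 0.0716) and 0.34 ± 0.198 (edgeR adjusted p = 0.216) did not pass.

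Of the RNA-binding and nuclear proteins, Mex3a alone passed the test in organoids. Mex3a marks a slowly dividing fraction of Lgr5+ cells (chr3:88532395-88541396, plus strand). It was at 21.2 and 24.1 CPM in WT, 122 and 102 in Sec-Cre and 147 and 115 in ISC-Cre organoids. With no overlap between Apc-null and WT, it rose by 2.25 ± 0.185 (edgeR adjusted p = 0.000187) and 2.50 ± 0.187 (edgeR adjusted p = 0.000109). Msi1, a translational regulator of stem and progenitor cells (chr5:115429599-115455698, plus strand), was at 19.4 and 38.1 CPM in WT and 39.6 to 42.8 CPM in the Apc-null organoids. Its log2 fold change was 0.48 with either driver (95% interval -0.19 to 1.15 for each; edgeR adjusted p = 0.236 and 0.226). Cdca7, which is needed to maintain DNA methylation (chr2:72476159-72486893, plus strand), lay at 164 and 279 CPM in WT, a range that held the Apc-null organoids except for a single Sec-Cre library at 289. Its log2 fold changes were 0.13 (95% interval -0.45 to 0.72) and -0.19 (-0.78 to 0.39).

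Markers of other cells moved with these changes. Enterocyte markers fell in 10 of 10 cases with either driver, from 0.310% to 0.440% of gene counts in WT to 0.0431% to 0.0583% in Apc-null organoids, with Apoa4, Fabp1 or Alpi at 0 in 3 of the 4. Goblet markers fell in 8 of 9 (0.483% to 0.525% in WT, 0.0560% to 0.0904% in Apc-null) and enteroendocrine markers in 9 of 10 (0.0804% to 0.0937%, against 0.00134% to 0.00656%). Paneth markers fell in 10 of 15 tested with Sec-Cre and 4 of 15 with ISC-Cre. Stromal and endothelial markers rose in 4 of 7 tested with Sec-Cre and 5 of 7 with ISC-Cre, and held 0.0325% to 0.0849% of counts, against 0.00106% and 0.00134% in WT; Lum was at 0 in all 4 Apc-null organoids. Their part in the markers' changes was not tested.

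**Figure D2:**
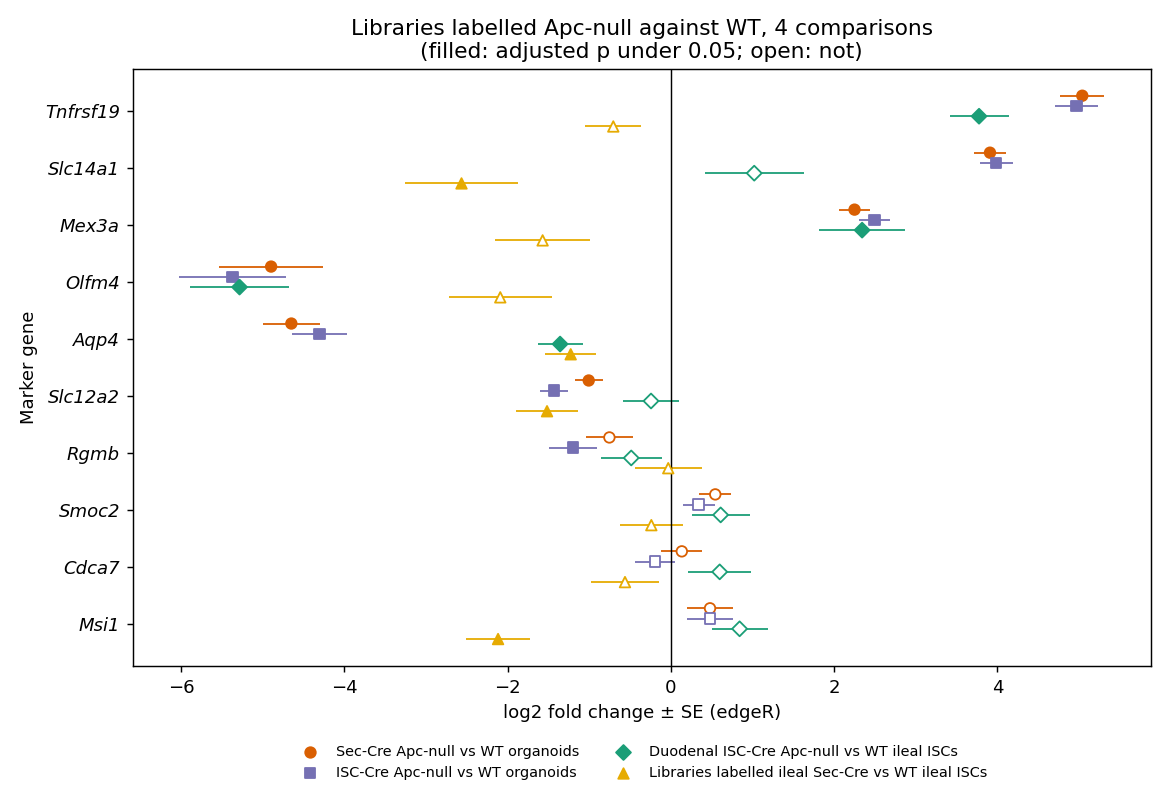
Log2 fold change of each marker in 4 comparisons of libraries labelled Apc-null with WT (points, edgeR, with SE bars; filled where the adjusted p was under 0.05). Tnfrsf19 and Mex3a lie to the right and Olfm4 and Aqp4 to the left in the organoid and duodenal comparisons, whereas all 10 points of the libraries labelled ileal Sec-Cre lie at or below 0.

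The driver made no difference that passed the test. Between Sec-Cre and ISC-Cre organoids 0 of the 10 markers were called, where 0.0422% of all genes passed (6 genes, each lower in Sec-Cre) and 0% were higher. At an unadjusted p under 0.05 there was 1 marker, Slc12a2, with a log2 difference of 0.42 (95% interval 0.03 to 0.82), and DESeq2 and limma voom called 0. The intervals were narrow for Tnfrsf19 (-0.44 to 0.59), Slc14a1 (-0.48 to 0.33) and Mex3a (-0.65 to 0.16), so a difference beyond 1 on the log2 scale lies outside them. For Olfm4 the interval ran from -0.81 to 1.76 and for Aqp4 from -1.08 to 0.39, so differences of that size could not be seen with 2 libraries a group.

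In sorted cells the pattern of the libraries labelled ileal Sec-Cre was another. Against ileal WT ISCs, 0 of the 10 markers rose and 4 fell, where 16.6% of all 14577 genes were called (9.62% higher, 6.96% lower). Msi1, Slc12a2, Aqp4 and Slc14a1 were the 4 that fell. The median over the 10 was -1.37, beside 0.00 over all genes. These 4 calls were 0 when only the 4 ileal libraries were fitted or when either ileal WT library was left out, and 1 without duodenal replicate 1 or 2, which enter the estimate of the spread. Without replicate 1 of the libraries labelled ileal Sec-Cre, the shallow one rich in Paneth markers, 6 were called, and without replicate 2, 5 were called.

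Msi1 was at 27.8 and 32.3 CPM in ileal WT ISCs and at 9.60 and 4.82 in the libraries labelled ileal Sec-Cre. Slc12a2 was at 1440 and 1214 CPM in WT and at 478 and 448. Neither gene's groups overlapped, and Msi1 fell by 2.12 ± 0.395 (edgeR adjusted p = 0.0107) and Slc12a2 by 1.52 ± 0.381 (edgeR adjusted p = 0.0305). Aqp4, at 112 and 177 CPM in WT and 69.4 and 54.5 in libraries labelled ileal Sec-Cre, fell by 1.23 ± 0.313 (edgeR adjusted p = 0.0319). Slc14a1 was at 59.1 and 55.7 CPM in WT and at 1.97 and 15.99 in libraries labelled ileal Sec-Cre, an 8.12-fold gap between the latter. It fell by 2.57 ± 0.689 (edgeR adjusted p = 0.0372), the opposite direction to its rise in organoids. Olfm4 was at 3005 and 3608 CPM in WT and 302 and 1258 in libraries labelled ileal Sec-Cre, with a log2 fold change of -2.09 ± 0.628 that just missed the threshold (edgeR adjusted p = 0.0528) and was called in 8 of 15 alternatives. Single libraries set the size of these values. Without replicate 1 of those labelled ileal Sec-Cre the log2 fold change was -1.42 for Olfm4 and -1.87 for Slc14a1, and without replicate 2 it was -3.45 and -4.86.

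Mex3a, at 11.8 and 12.7 CPM in WT and 7.14 and 2.03 in libraries labelled ileal Sec-Cre, had a log2 fold change of -1.57 ± 0.578 (edgeR adjusted p = 0.0942), which was -2.62 without replicate 1 of those labelled ileal Sec-Cre, -0.78 without replicate 2, and called in 3 of 15 alternatives. Tnfrsf19 was at 28.1 and 17.6 CPM in WT and 14.0 and 13.9, without overlap but with an adjusted p of 0.186 by edgeR. Neither gene came near its Apc-null organoid level in any ileal library. Smoc2, Cdca7 and Rgmb had log2 fold changes of -0.24, -0.56 and -0.03, with 95% intervals of -1.11 to 0.63, -1.51 to 0.38 and -0.97 to 0.90. In the same comparison enterocyte markers rose in 9 of 10 cases. Paneth markers rose in 1 of 16 tested and fell in 0, although their median log2 fold change was 3.53. At an unadjusted edgeR p under 0.05 there were 9 of the 16. Proliferation genes fell in 8 of 20 and held 0.0295% and 0.137% of counts, against 0.352% and 0.342% in WT. These shares are not scaled by TMM. On the CPM scale used for the markers, the summed level of the proliferation genes was 836 and 1564, against 3398 and 3222 in WT. The part of these other genes in the markers' lower levels was not tested.

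In the duodenal ISC-Cre ISCs some markers rose and others fell. Against ileal WT ISCs, 2 of the 10 markers rose and 2 fell, where 19.1% of genes were called (10.2% higher, 8.84% lower), and the median was 0.60 beside 0.07 over all genes. Leaving out ileal WT replicate 2 or duodenal replicate 1 left 2 calls, and limma voom with library weights gave 9. Tnfrsf19 was at 359, 339 and 236 CPM in duodenal ISCs, far above both ileal WT libraries, and rose by 3.78 ± 0.361 (edgeR adjusted p = 0.000601). Mex3a was at 74.7, 67.9 and 43.8 CPM and rose by 2.34 ± 0.526 (edgeR adjusted p = 0.0175), a call that was lost when either ileal WT library, duodenal replicate 1 or duodenal replicate 2 was left out. Olfm4 was at 70.0, 102 and 82.5 CPM, far under the ileal WT pair, and fell by 5.29 ± 0.608 (edgeR adjusted p = 0.001). Aqp4, at 52.8, 55.9 and 60.7 CPM, fell by 1.36 ± 0.276 (edgeR adjusted p = 0.0116), a call lost without ileal WT replicate 2 or duodenal replicate 1.

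Slc14a1 was at 127, 138 and 83.0 CPM in the duodenal ISCs, above both ileal WT libraries, yet its log2 fold change of 1.02 ± 0.607 did not pass (edgeR adjusted p = 0.274). Msi1, at 51.4, 51.1 and 59.1 CPM, was also above both (0.84 ± 0.343, edgeR adjusted p = 0.122). Both genes were called in 4 of 16 alternatives, which were limma voom, the fit of only the groups compared (edgeR adjusted p = 0.0266 for Slc14a1 and 0.0211 for Msi1) and the fits without either library labelled ileal Sec-Cre. Slc12a2 was at 975, 955 and 1432 CPM, the last of these between the ileal WT libraries (1440 and 1214) and the others below both. Its log2 fold change was -0.24, with a 95% interval of -1.01 to 0.52. Smoc2 at 242 to 507, Cdca7 at 315 to 406 and Rgmb at 53.9 to 119 CPM did not pass, with log2 fold changes of 0.61, 0.60 and -0.49. Beside these values, Wnt feedback genes rose in 13 of 16 cases, enteroendocrine markers fell in 10 of 10 and stromal and endothelial markers rose in 4 of 5 tested (0.0462% to 0.0851% of counts, against 0.00110% and 0.00153%, with Col3a1, Lum or Kdr at 0 in each duodenal library), and the part of these in the markers' changes was not tested.

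Between the ISC groups labelled Apc-null, 6 of the 10 markers were higher in the duodenal ISC-Cre cells than in the libraries labelled ileal Sec-Cre and 1 was lower, where 40.8% of all genes were called (21% higher, 19.8% lower). The differences, on the log2 scale, were 4.48 ± 0.378 for Tnfrsf19, 3.92 ± 0.595 for Mex3a, 3.59 ± 0.695 for Slc14a1, 2.96 ± 0.39 for Msi1, 1.27 ± 0.355 for Slc12a2 and 1.16 ± 0.393 for Cdca7. Olfm4 was lower, by -3.20 ± 0.562 (edgeR adjusted p = 0.00305). The call of Cdca7 (edgeR adjusted p = 0.0433) was lost in 8 of 16 alternatives, among them leaving out any single library except replicate 2 of those labelled ileal Sec-Cre. Aqp4 did not pass, with a difference of -0.13 (95% interval -0.77 to 0.51), and neither did Smoc2 (0.85 ± 0.358, edgeR adjusted p = 0.0878) or Rgmb (-0.45 ± 0.373). In the same contrast enterocyte markers were lower in the duodenal cells in 10 of 10 cases (median -3.81), Paneth markers in 10 of 16 tested (-5.35), goblet markers in 8 of 9 and enteroendocrine markers in 9 of 10. Stromal and endothelial markers were higher in 4 of 5 tested (7.75), and the part of these in the differences was not tested.

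The same driver, Sec-Cre, was labelled in organoids and in sorted cells, and the difference between the log2 fold changes against WT in the 2 materials was tested as an interaction in a fit of all 13 libraries. Whether it compares 2 effects of Apc loss rests on the label of the ileal libraries. The fold change was higher in organoids for 4 of the 10 markers and lower for 2, where 26.4% of all 15208 genes were called (13.4% higher, 13% lower). The median difference was 0.79, beside 0.16 over all genes. It was 6.47 ± 0.819 for Slc14a1, 5.81 ± 0.481 for Tnfrsf19, 3.97 ± 0.638 for Mex3a and 2.67 ± 0.509 for Msi1. For Slc14a1 the signs were opposite, with a called rise in organoids and a called fall in the libraries labelled ileal Sec-Cre. The fall of Aqp4 was deeper in organoids, by -3.37 ± 0.468, and that of Olfm4 by -2.77 ± 0.918 (edgeR adjusted p = 0.0428), although the Olfm4 call was lost in 11 of 20 alternatives. Other cell type markers moved with this difference, with enterocyte markers lower in 10 of 10 cases (median -11.6), Paneth markers in 8 of 16 tested (-5.26) and enteroendocrine markers in 7 of 10, and proliferation genes higher in 9 of 20 (1.53). Their part in it was not tested. Material, day and reporter alleles also differ between the organoids and the sorted cells and cannot be told apart from each other. Gut region may differ too, since no region but the duodenum of the shared protocol is given here for the organoids.

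**Figure D3:**
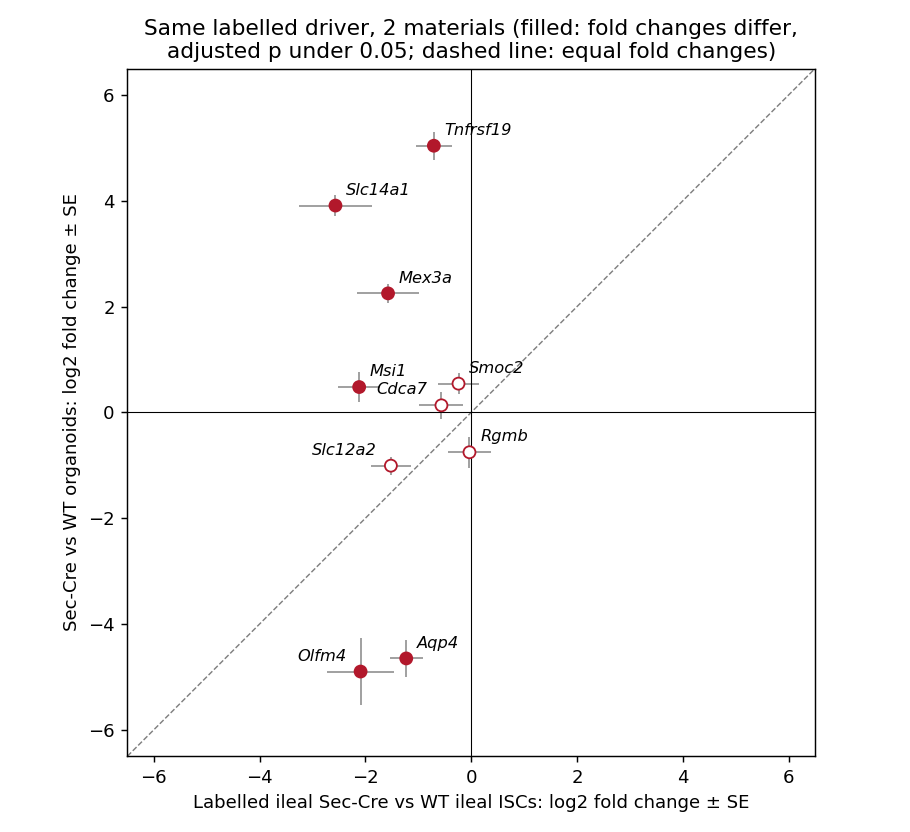
Log2 fold change against WT of each marker in the libraries labelled ileal Sec-Cre (x axis) and in Sec-Cre organoids (y axis), with SE bars, from the fit of each material; filled points differ between the materials at an adjusted p under 0.05 in the fit of all 13 libraries. Tnfrsf19, Slc14a1, Mex3a and Msi1 lie in the upper left, and Olfm4 and Aqp4 lie below the dashed line of equal fold changes.

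Without Apc loss, 2 of the 10 markers differed between organoids and sorted cells by the test. Between WT organoids and ileal WT ISCs, 0 of the 10 markers were higher and 2 were lower, where 3.87% of all genes were called (1.98% higher, 1.89% lower). Slc14a1 was lower in organoids by -2.90 ± 0.573 (edgeR adjusted p = 0.0149) and Tnfrsf19 by -1.42 ± 0.325 (edgeR adjusted p = 0.0317). Both are markers that rose in the Apc-null organoids. Olfm4 did not pass (log2 difference -0.08, 95% interval -1.47 to 1.30), and the wide interval goes with the gap between its WT organoid libraries. Aqp4 had a difference of 0.97 ± 0.322 (edgeR adjusted p = 0.14). Gut region may differ between these groups. Fabp6 was at 0.985 and 2.27 CPM in WT organoids and 358 and 155 in ileal WT ISCs, and Onecut2 at 15.05 and 13.9 against 0.743 and 1.77. Osr2, at 4.52 to 7.05 CPM in duodenal ISCs, was closer, at 68.0 and 82.1 against 124.5 and 91.4. These genes were chosen after their values were seen, and the part of region was not tested. Only 1 call was left when any Sec-Cre or ISC-Cre organoid library or WT organoid replicate 2 was left out, and 0 without WT organoid replicate 1 or either ileal WT library.

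Levels can be set between genes only per length, here as CPM per kilobase of exon (CPM per kb). On that scale Olfm4 was the first of the 10 in WT organoids (1054 CPM per kb) and ileal WT ISCs (1116), and Tnfrsf19 (1.79) and Slc14a1 (1.93) were the last in WT organoids and overlapped. In Apc-null organoids Smoc2 was first, at 84.8 CPM per kb with Sec-Cre and 72.7 with ISC-Cre, and Aqp4 was last, at 1.87 and 2.34. Smoc2 overlapped Slc12a2 and Cdca7 next to it with Sec-Cre. In duodenal ISCs Cdca7 (112.7 CPM per kb) and Slc12a2 (103) led and overlapped. The libraries labelled ileal Sec-Cre kept Olfm4 first, at 263 CPM per kb, and had Mex3a (0.794) and Msi1 (1.24) last, overlapping. In plain CPM, Olfm4 made up 37.9% and 60.7% of the summed level of the 10 in WT organoids, and 2.12% to 5.23% of it in Apc-null organoids.

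**Figure D4:**
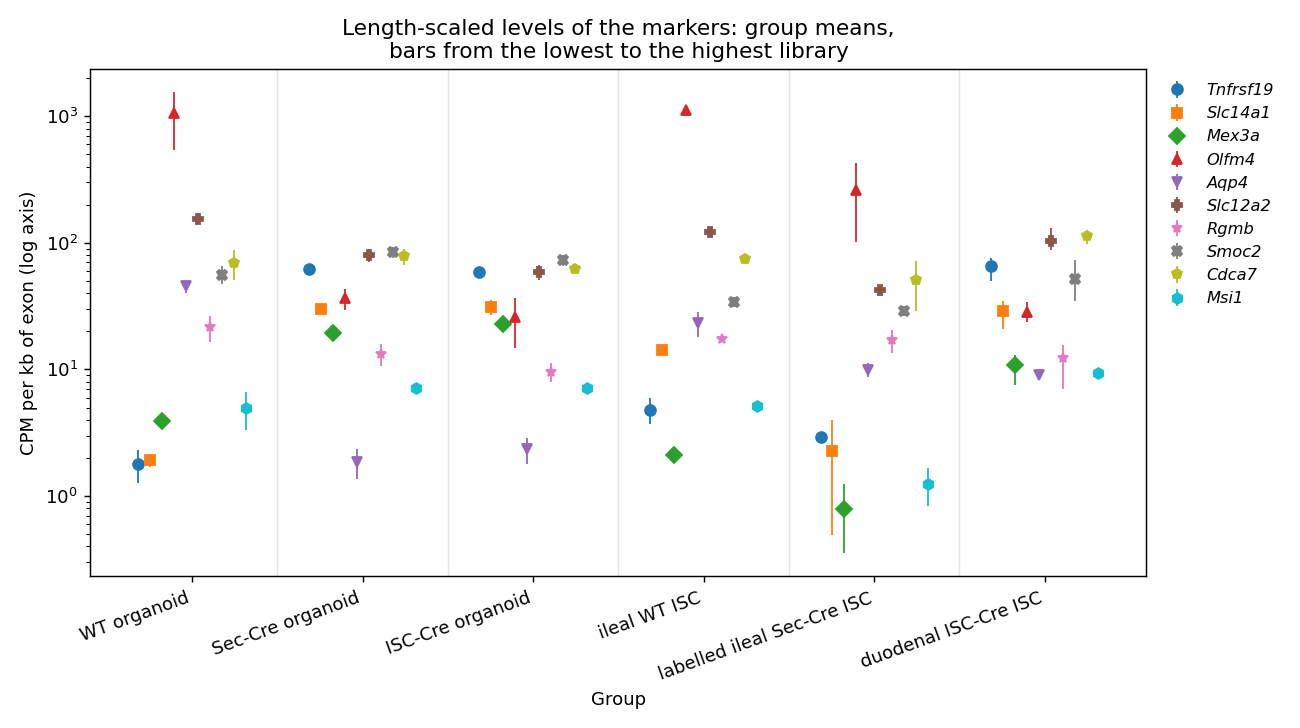
Mean level of each marker per group in CPM per kilobase of exon on a log axis, 1 symbol per marker, with bars from the lowest to the highest library. Olfm4 leads at 1054 and 1116 CPM per kb in the WT groups, and the order changes in the Apc-null organoids, where Aqp4 is last.

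Across the 6 groups the span from the highest to the lowest group mean was 43.3-fold for Olfm4, 36.6-fold for Tnfrsf19, 28.5-fold for Mex3a, 24.3-fold for Aqp4 and 16.1-fold for Slc14a1. It was 7.47-fold for Msi1, 3.64-fold for Slc12a2, 2.93-fold for Smoc2, 2.25-fold for Rgmb and 2.23-fold for Cdca7. For Smoc2 and Rgmb each group overlapped its neighbour in the order of levels, so those orders are not resolved. For Olfm4 the WT organoids and ileal WT ISCs overlapped at the top, the libraries labelled ileal Sec-Cre were next at a mean of 780.1 CPM, and the Sec-Cre organoids, duodenal ISCs and ISC-Cre organoids overlapped at the bottom. For Tnfrsf19 the duodenal ISCs, Sec-Cre and ISC-Cre organoids overlapped at the top. Ileal WT ISCs (22.8 CPM), the libraries labelled ileal Sec-Cre (14.0) and WT organoids (8.49) followed without overlap. Slc14a1 had the ISC-Cre organoids, Sec-Cre organoids and duodenal ISCs at the top, ileal WT ISCs at 57.4 CPM, and libraries labelled ileal Sec-Cre and WT organoids overlapping at the bottom. Cdca7 was highest in the duodenal ISCs, apart from the next group, and the other 5 groups overlapped in turn.

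Other crypt-base stem cell genes from a list of 30, of which 29 were in the tables and tested, rose more often than they fell in organoids. Axin2 and Sp5 are on this list and also on that of the Wnt feedback genes. With Sec-Cre organoids 14 of 29 rose and 4 fell (median 0.58), and with ISC-Cre organoids 15 rose and 6 fell (median 0.65). Among all genes 16.7% were called higher and 16.3% lower with Sec-Cre, and 19.3% and 18.5% with ISC-Cre. Lgr5, which is on the list of other stem cell genes, was at 205 and 225.5 CPM in WT organoids. It was at 124 and 281 CPM in Sec-Cre organoids and, below both WT libraries, at 103 and 79.95 in ISC-Cre organoids. Of the organoid genotypes as given, only that of ISC-Cre names an Lgr5 allele (Lgr5eGFP-CreERT2). The part of this allele in the Lgr5 level was not tested. Znrf3, an E3 ligase that removes Wnt receptors, rose by 1.79 ± 0.135 and 1.99 ± 0.136, and the vitamin D receptor gene Vdr fell by 3.47 ± 0.197 and 3.50 ± 0.197. Nrn1, encoding the surface protein neuritin, fell by 5.54 ± 0.837 and 5.42 ± 0.832. Sorbs2, an actin adaptor, rose by 2.05 ± 0.17 with Sec-Cre, and Tcf4, a transcription factor gene distinct from Tcf7l2, rose by 2.60 ± 0.221 with ISC-Cre. Between the drivers 0 of 29 were called in either direction by edgeR, where 0.0422% of all genes were called.

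In libraries labelled ileal Sec-Cre 4 of 29 rose and 4 fell against ileal WT (median -0.39), where 9.62% of all genes rose and 6.96% fell. Sectm1b rose by 4.33 ± 0.325, Axin2 fell by 2.40 ± 0.407 and Ephb2, a receptor that positions cells along the crypt, fell by 1.77 ± 0.268. In duodenal ISCs 13 of 29 rose and 1 fell (median 1.13), where 10.2% of all genes rose and 8.84% fell. Igfbp4, a secreted IGF-binding protein, rose by 2.72 ± 0.304 and Fstl1, a secreted glycoprotein, from 0.155 ± 0.219 to 54.7 ± 2.12 CPM (mean ± SD, n = 2 and 3), while Vdr fell by 3.79 ± 0.335. Between the ISC groups labelled Apc-null 17 of 29 were higher in the duodenal cells and 2 lower (median 1.60), with Nrn1 higher by 4.49 ± 0.505 and Vdr lower by -4.07 ± 0.338. Among all genes 21% were called higher and 19.8% lower. The interaction had 8 of 29 higher and 3 lower (median 0.92), where 13.4% of all genes were higher and 13% lower. By adjusted p, Sectm1b (-4.25 ± 0.356) and Vdr (-3.69 ± 0.423) came first among the lower genes, and Axin2 (3.80 ± 0.505) and Cd44, a Wnt target and hyaluronan receptor (2.42 ± 0.397), among the higher ones. Between the WT groups 2 were higher in organoids, Lgr5 (1.44 ± 0.354) and the cholesterol-esterifying enzyme gene Soat1 (1.35 ± 0.338), and 0 lower. Among all genes 1.98% were called higher and 1.89% lower. The ileal WT ISCs carry Lgr5DTR-GFP, an allele not named for the WT organoids, and its part in the Lgr5 difference was not tested.

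**Figure D5:**
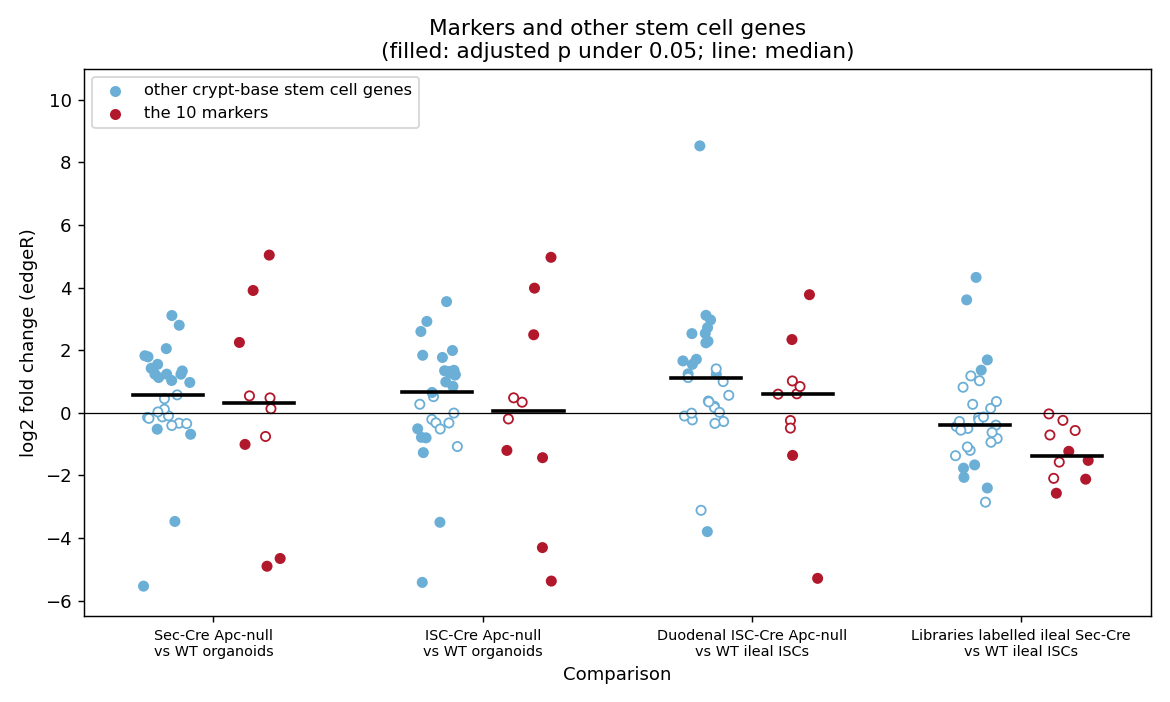
Log2 fold change (edgeR) of the 10 markers (red) and of 29 other crypt-base stem cell genes (blue) in 4 comparisons of libraries labelled Apc-null with WT; each point is a gene, filled at an adjusted p under 0.05, and the line is the list's median. In the organoid comparisons the 10 markers stand apart from each other, from -4.90 to 5.04 with Sec-Cre and from -5.37 to 4.97 with ISC-Cre.

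The genes most like each marker were found as those with the smallest root mean square difference between centred log2 group means, over the 6 groups. The group means share the same 13 libraries, so this is a description. Closest to Olfm4 was Cps1, the first enzyme of the urea cycle (difference 0.24, where the median over all genes compared was 2.44). Cps1 was at 2783 CPM in WT organoids and 2888 in ileal WT ISCs, and at 88.7 and 91.6 in Sec-Cre and ISC-Cre organoids and 110.7 in duodenal ISCs. Tnfrsf19 was most like Nfe2l3, a transcription factor gene (0.31), which was at 0.544 CPM in WT organoids, 35.6 and 48.5 in Sec-Cre and ISC-Cre organoids and 50.1 in duodenal ISCs. Mex3a was most like Camsap2, a microtubule minus-end binding protein gene (0.17), Slc14a1 like the phospholipid flippase gene Atp8b2 (0.35) and Aqp4 like Itih5 (0.45). Within the 10, the most alike pair was Cdca7 and Slc12a2 (0.51) and the least alike Olfm4 and Tnfrsf19 (4.42).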

How the data were processed

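Per the labels, RNA was taken from whole organoids and from ISCs isolated by flow cytometry, and the deposited values were whole-number read counts for 24054 genes, with a table for each library. Per the submitters' processing notes, STAR (version not given), DESeq2 1.22.2 and mm10 were used, and the gene annotation is not given in the sources used here. The column of counts for both strands was used, although per the deposited strand columns the duodenal libraries were 98.5% to 98.9% second-strand and the others 48.4% to 51.1%. The 4 summary lines per table were left out of library sizes.

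In R 4.3.3, edgeR 4.0.16 (filterByExpr with a minimum count of 10, TMM, quasi-likelihood test) was fitted to the 6 organoid libraries (14208 genes), the 7 ISC libraries (14577 genes) and, for contrasts across materials, all 13 libraries (15208 genes). P-values were adjusted by Benjamini-Hochberg over every gene of the fit and called under 0.05, and SE comes from the F statistic. CPM levels used TMM sizes over all 13 libraries, so 3 counts were worth 0.0753 to 0.739 CPM. The TMM size was 0.352 and 0.875 of the gene counts in replicates 1 and 2 labelled ileal Sec-Cre, and 0.98 to 1.25 elsewhere. The CPM values of that replicate 1, and the fold changes drawn from it, depend on this scaling. The scripts were tested on simulated data. Of 4-fold changes, 100% were recovered for Sec-Cre against WT organoids, 48% for libraries labelled ileal Sec-Cre against WT and 70% between the WT groups. Of 16-fold changes, 100% were recovered in each. Alternatives were DESeq2 1.42.0, limma 3.58.1 voom with library weights, other size factors, filters, library sets and a replicate block, leaving out each library, leaving out Paneth, Rn45s or Lars2 counts, and second-strand counts. No replicate pair was a copy of another (chi-square over genes divided by its degrees of freedom, 18 to 1570).

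The members and gene lists were chosen with earlier results of these data known. Beside the members, the text names Apc, Lgr5, per comparison up to 2 higher and 2 lower genes of smallest adjusted p among the other stem cell genes, and per member the genes of most similar profile. Exon lengths and positions are from GENCODE vM21 on GRCm38, whose symbols matched 94.6% of the genes. Olfm4 shares 153 exonic bases with Gm6999 on its strand and Mex3a 82 with Mir1905 on the other, and without strand those reads cannot be told apart. Figures were drawn with Python 3.11.15.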

Additional observations from a re-analysis of the deposited data

Results flagged for a closer look

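For 6 of the 10 markers the log2 fold change against WT differed between Sec-Cre organoids and the libraries labelled ileal Sec-Cre by the interaction term of the edgeR fit of all 13 libraries. In the latter, 4 of 16 Wnt feedback genes were called higher than in ileal WT and 2 lower, Axin2 among the lower. The summed level of those 16 genes was 642 and 624 CPM there, against 1170 and 1096 in ileal WT. Whether the interaction compares 2 effects of Apc loss therefore rests on the label of those libraries. The log2 difference, organoids minus sorted cells, was 6.473 for Slc14a1 (adjusted p = 0.000188), 5.814 for Tnfrsf19 (adjusted p = 1.46e-05), 3.973 for Mex3a (adjusted p = 0.000891) and 2.674 for Msi1 (adjusted p = 0.00262). It was -3.372 for Aqp4 (adjusted p = 0.000352) and -2.769 for Olfm4 (adjusted p = 0.0428). Without replicate 1 of the libraries labelled ileal Sec-Cre, the one with 25.6% Paneth marker counts, the difference was 5.78 for Slc14a1, 5.80 for Tnfrsf19, 4.88 for Mex3a, 3.16 for Msi1, -3.21 for Aqp4 and -3.47 for Olfm4. Without replicate 2 it was 8.73, 5.71, 3.00, 2.09, -3.63 and -1.48 in the same order of genes. The Olfm4 difference did not pass without replicate 2 (edgeR adjusted p = 0.174).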

How the results depend on the processing

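All 6 organoid calls shared by both drivers (Olfm4, Aqp4, Slc12a2, Tnfrsf19, Slc14a1 and Mex3a) were made under each of the 14 alternatives run. Leaving out each library in turn, the number of markers called ran from 6 to 8 for Sec-Cre and 6 to 7 for ISC-Cre against WT organoids, 0 to 0 between the drivers, 0 to 6 for libraries labelled ileal Sec-Cre and 2 to 6 for duodenal ISCs against ileal WT, 6 to 7 between the ISCs labelled Apc-null, 0 to 2 between the WT groups and 5 to 6 for the interaction. With only the groups compared in the fit, 0 markers were called in libraries labelled ileal Sec-Cre (fewer samples), 6 in duodenal against ileal WT ISCs and 1 between the WT groups, and limma voom with library weights called 9 in duodenal against ileal WT ISCs; the cause of the last was not tested. Small log2 differences that did not pass in the fit as reported changed sign. Msi1 between the drivers became 0.0099 without the filter and 0.017 with all 13 libraries. Rgmb in libraries labelled ileal Sec-Cre became 0.023 with DESeq2 size factors and 0.023 with DESeq2. With a library left out, the ranges that crossed 0 were these. Between the drivers, Olfm4 ran from -0.042 to 1.30, Tnfrsf19 from -0.044 to 0.18, Slc14a1 from -0.25 to 0.13, Aqp4 from -0.80 to 0.064 and Msi1 from -0.073 to 0.080, among them 0.0047, 0.0013 and 0.0016. Against WT organoids, Cdca7 ran from -0.19 to 0.57 with Sec-Cre, with -0.091 among them, and from -0.52 to 0.24 with ISC-Cre. In sorted cells, Rgmb ran from -0.39 to 0.24 in libraries labelled ileal Sec-Cre against WT, and Aqp4 from -0.30 to 0.080 between the groups labelled Apc-null. Between the WT groups, Olfm4 ran from -1.04 to 0.49 (0.055 without ileal WT replicate 2), Cdca7 from -0.55 to 0.23, Msi1 from -0.63 to 0.35 (0.05 without ileal WT replicate 2) and Rgmb from -0.076 to 0.62. Replicate numbers did not pair the samples (correlations of deviations of same-numbered libraries -0.12 to 0.0743); with a replicate block the markers called were 6, 7, 0, 5, 4, 6, 2 and 5, for the comparisons in the order listed above for the left-out libraries. Counts over all genes moved more. With all 13 libraries in the fit they went from 4685 to 2477 and from 5377 to 2997 for Sec-Cre and ISC-Cre against WT organoids, and from 2417 to 4291 for libraries labelled ileal Sec-Cre against WT (1336 with only the groups compared). The count was 7375 with voom and 1671 with the block, against 2783, for duodenal against ileal WT, 1 to 72 against 6 between the drivers, and up to 1409 against 589 between the WT groups. Leaving out a library gave 153 to 3183 genes for libraries labelled ileal Sec-Cre.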

Other observations

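The list of 16 Notch pathway genes held receptors and targets, but also the ligand genes Dll1, Dll4, Jag1 and Jag2, and Rbpj, Lfng and Maml1. Its counts therefore do not give the direction of Notch signalling, the pathway that Olfm4 reports on. In Apc-null organoids 4 of 14 tested were higher and 3 lower with Sec-Cre, and 4 higher and 2 lower with ISC-Cre. Among all genes 16.7% and 19.3% were higher and 16.3% and 18.5% lower. In the libraries labelled ileal Sec-Cre 7 of 16 Notch pathway genes were lower and 0 higher against ileal WT, and in duodenal ISCs 1 was higher and 3 lower. There 9.62% and 10.2% of all genes were higher and 6.96% and 8.84% lower. The same shares of all genes stand behind the next counts. Proliferation genes were called in 2 of 20 (both higher) in Sec-Cre organoids and 1 higher and 1 lower in ISC-Cre organoids, and 8 of 20 were lower in libraries labelled ileal Sec-Cre and 6 of 20 in duodenal ISCs than in ileal WT ISCs, with 0 higher. Reserve and revival stem cell genes, the list to set beside the crypt-base markers, were higher in 6 of 11 with either driver and lower in 3 with Sec-Cre and 2 with ISC-Cre. Among sorted cells they were higher in 3 of 11 in libraries labelled ileal Sec-Cre and 4 of 11 in duodenal ISCs, with 0 lower in either.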
